A study of Drosophila melanogaster with 4 samples.

Results

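The Iroquois complex is a group of 3 homeobox genes, araucan (ara), caupolican (caup) and mirror (mirr), on chromosome arm 3L of Drosophila melanogaster. ChIP-seq with an antibody against dSFMBT was examined over their locus, 3L:12560000-12760000 in FlyBase release 5. Every enriched region overlapping this 200-kb window was taken. The window held 24 of the 9756 regions in the list that combined the ChIP replicates, 11 of the 5514 regions of replicate 1 and 14 of the 6004 regions of replicate 2. The regions came from wild-type larvae of the strain Oregon-R at the third instar, homogenised and fixed with formaldehyde. The ChIP group had 2 replicates, precipitated with the antibody Q2642, and the input group had 2 replicates, whose own signal was not analysed here. No label states that the replicate libraries were made from different larval collections, so the spread between them may be technical. Whole larvae hold many cell types, and a score averages over them.

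The 3 genes encode transcription factors of the TALE homeodomain class. Ara and Caup are known for activating proneural genes in the notum and for wing vein patterning, and Mirr for the dorsal side of the eye and for patterning of the ovarian follicle. The locus is a known target of Polycomb group proteins, which keep developmental genes silent outside their domains of expression. dSFMBT carries MBT domains and forms the complex PhoRC with Pho, a protein that binds DNA at Polycomb response elements, the sites where Polycomb complexes are recruited.

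In the RefSeq gene table, which is of release 6, all 3 genes were found by symbol. Along the arm they follow each other as ara (Dmel_CG10571), caup (Dmel_CG10605) and mirr (Dmel_CG10601). No other protein-coding gene lies from ara to mirr in that table, and 4 long non-coding RNA genes, lncRNA:CR32111, lncRNA:CR43431, lncRNA:CR44553 and lncRNA:CR44552, lie between caup and mirr. The neighbouring protein-coding genes are sowah before ara and SmD1, a core protein of the spliceosomal snRNPs, after mirr. The regions are in release 5 and the table is not, so no region was assigned to a promoter, an exon, an intron or the space between genes. The values below describe the locus as a whole and not a single gene.

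Of the 24 combined-list regions of the window, 11 overlapped a region of each replicate by at least 1 bp. In the whole combined list 41.4% of regions did so, so the share in the window was near the background. A further 3 overlapped replicate 2 alone, against 16.7% of the whole list, and 10 overlapped neither, against 32.1%. No region of the window overlapped replicate 1 alone, where the whole list had 9.89%. Seen from the replicates, all 11 replicate 1 regions of the window were found in replicate 2, against 79.4% of the whole replicate 1 list. Of the 14 replicate 2 regions, 11 were found in replicate 1, against 71.1% of that list. Each of the 11 regions found in both replicates matched exactly 1 region in each replicate, which was the case for 87.6% of such regions in the genome.

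The 11 regions found in both replicates are described as high or low by a ratio of 2 in the combined list. The score is the authors' value per region and lies on a log2 scale, so ratios given here are 2 raised to the score. Its denominator is not named in the headers. The 5 high regions had combined scores from 1.04 to 1.64, ratios from 2.06 to 3.12. The 6 low regions had combined scores from 0.37 to 0.57, ratios from 1.29 to 1.49. In the ordered combined scores the step between the sets, 0.47, was the largest, but in each replicate the largest step lay elsewhere. It came below the top 2 regions, at 0.31 in replicate 1 and 0.53 in replicate 2, while the step between the sets was 0.27 in replicate 1 and 0.29 in replicate 2. Beside these 5 of 11 regions, 11.7% of all 4036 regions found in both replicates had a ratio above 2, and beside the 5 of 24 in the combined list, 6.21% of the whole list did. The median combined score of the 11 was 0.57, beside 0.56 over all regions found in both replicates. By replicate scores it was 0.74 beside 0.61 in replicate 1 and 0.69 beside 0.66 in replicate 2.

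**Figure D1:**
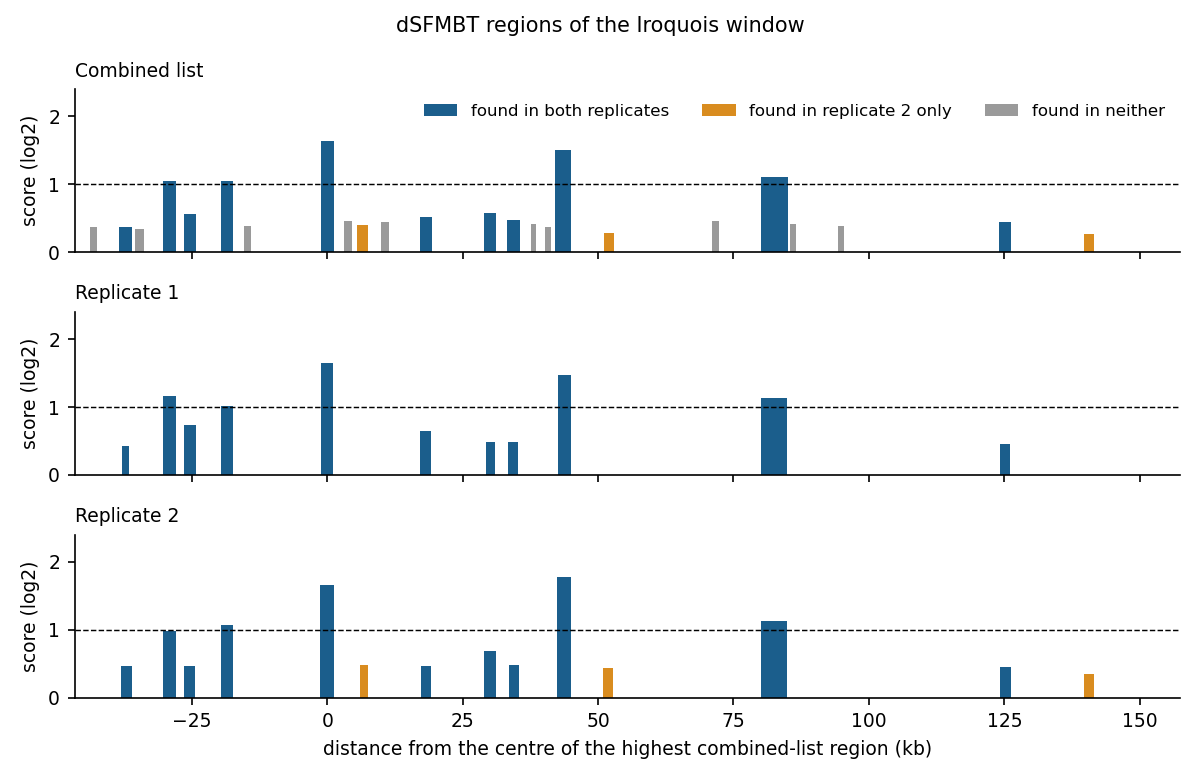
Regions of the Iroquois window in the combined list and in each replicate. Each bar spans a region at its true width, its height is the authors' log2 score, the x axis is the distance in kb from the centre of the highest combined-list region, the dashed line marks a ratio of 2, and colour shows in which replicates a region was found. The 5 tall bars recur at the same places in all 3 lists, and the stretch after the wide region holds low bars alone.

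The highest region of the locus by combined score was 3L:12601382-12603858. Its score was 1.65 in replicate 1, 1.66 in replicate 2 and 1.64 in the combined list, a replicate mean of 1.66 ± 0.0033 (SD, n = 2). The replicates differed here by less than in any other region of the window. It ranked 73 among the 4036 regions found in both replicates and 11 among the 713 of these on 3L.

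The second region, 3L:12644635-12647577, scored 1.47 in replicate 1, 1.78 in replicate 2 and 1.51 in the combined list. Its mean of 1.62 ± 0.22 (SD, n = 2) carried the widest spread of the 11. The order of these top regions was reversed between the replicates, since 3L:12601382-12603858 led in replicate 1 and 3L:12644635-12647577 led in replicate 2. Their difference was thus not larger than the spread between replicates. The second region ranked 104 among all regions found in both replicates and 17 on 3L.

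The third region, 3L:12682659-12687664, was the widest of the locus at 5006 bp. It scored 1.14 in replicate 1 and 1.13 in replicate 2, a mean of 1.14 ± 0.0066 (SD, n = 2), and 1.11 in the combined list. Its width was also similar between the libraries, at 4849 bp in replicate 1 and 4857 bp in replicate 2, and its centres there lay 18 bp apart. It was the only region of the second 100 kb of the window with a ratio above 2.

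The 2 remaining high regions lay close to the threshold. The region 3L:12572265-12574741 scored 1.17 in replicate 1, 0.99 in replicate 2 and 1.05 in the combined list, a mean of 1.08 ± 0.13 (SD, n = 2). In replicate 2 its ratio was 1.98, so that library alone had 4 of 14 regions with a ratio above 2, against 12.5% of its whole list, while replicate 1 had 5 of 11, against 8.61%. The region 3L:12583001-12585185 scored 1.01 in replicate 1, 1.08 in replicate 2 and 1.04 in the combined list, a mean of 1.04 ± 0.047 (SD, n = 2). The replicate values of 3L:12572265-12574741 spanned those of both 3L:12583001-12585185 and the wide region, so its place among these 3 was not resolved. The wide region was higher than 3L:12583001-12585185 in both replicates. The gap between the top pair and these 3 held in each library: both of the top pair were above all 3 in replicate 1 and in replicate 2.

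The other 6 regions found in both replicates were lower. Their replicate 1 scores ran from 0.42 to 0.74 and their replicate 2 scores from 0.45 to 0.69. In each library the lowest of the 5 high regions, 1.01 in replicate 1 and 0.99 in replicate 2, was above the highest of these 6. The combined list was made from the same libraries, so this separation is not independent of the choice by combined score.

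The highest of the low regions by combined score, 3L:12631576-12633810, scored 0.48 in replicate 1 and 0.69 in replicate 2 (mean 0.59 ± 0.15, SD, n = 2). The region 3L:12576168-12578309, 1426 bp after the end of 3L:12572265-12574741, went the other way, with 0.74 in replicate 1 and 0.47 in replicate 2 (mean 0.61 ± 0.19, SD, n = 2). The region 3L:12619792-12621890 was also higher in replicate 1, at 0.64 against 0.47 (mean 0.55 ± 0.12, SD, n = 2). The place of 3L:12631576-12633810 among these 3 was not resolved, since it was the lowest of them in replicate 1 and the highest in replicate 2.

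The last 3 low regions differed little between the libraries. The region 3L:12635821-12638173 scored 0.49 in replicate 1 and 0.48 in replicate 2. The region 3L:12726716-12728804 scored 0.46 in replicate 1 and 0.45 in replicate 2. The region 3L:12564268-12566661, the lowest of the 11 by combined score at 0.37, scored 0.42 in replicate 1 and 0.47 in replicate 2. Both libraries listed each of them below the median score of all regions found in both replicates, which was 0.61 in replicate 1 and 0.66 in replicate 2.

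Replicate scores of the window regions differed by a median of 0.066 in absolute value, with a range from 0.0046 to 0.31. Over all regions found in both replicates the median was 0.11. Replicate 2 was the higher library in 5 of the 11 regions, against 59.1% in the genome, and the mean over the 11 was 0.88 in each replicate. Across the 11 regions, the scores of the replicates had a Pearson r of 0.94 and a Spearman rho of 0.84. Over all regions found in both replicates these were 0.81 and 0.70. Both are descriptions over regions of the same 2 libraries. The combined score lay between the replicate scores in 6 of the 11 regions, against 46.4% in the genome, and below both in 5, against 53.4%. It lay above both in 0, against 0.198%. The combined score is therefore not a mean of the deposited replicate scores.

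**Figure D2:**
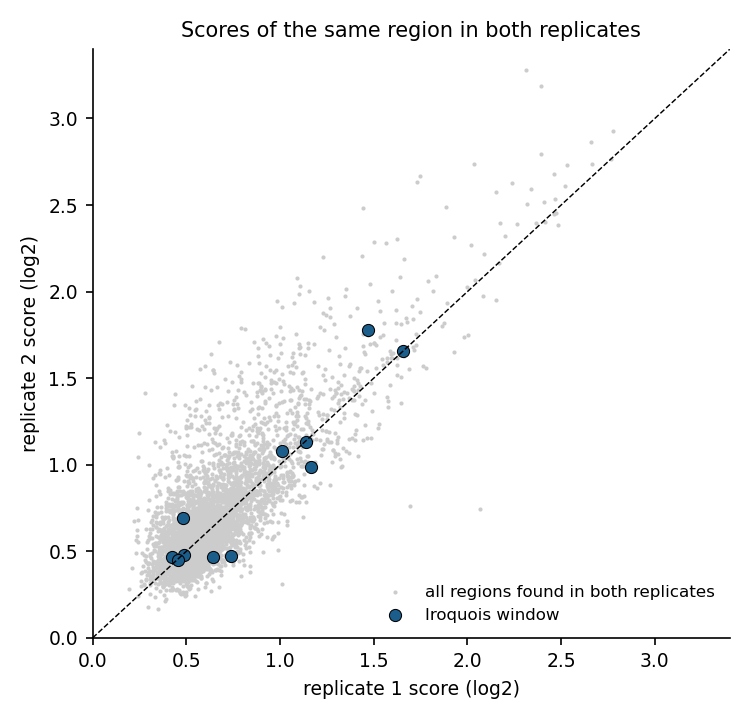
Score of each region found in both replicates, with replicate 1 on the x axis and replicate 2 on the y axis, both on the log2 scale. Grey points are all 4036 such regions, blue points are the 11 of the Iroquois window, and the dashed line marks equal scores. The window's regions scatter on both sides of the line, with 5 above it.

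Positions were close between the libraries. Centres of the 11 matched pairs lay from 18 to 288 bp apart, with a median of 70.5 bp. The same median was 139 bp over the 3535 regions of the genome with 1 match in each replicate. The 288 bp belonged to 3L:12564268-12566661, which was 1352 bp wide in replicate 1 and 2016 bp wide in replicate 2. A median of 92.0% of the joint span of a pair was common to both libraries in the window, against 83.8% in the genome. In 8 of the 11 pairs the region was wider in replicate 2, near the background of 67.6% over the genome. The median difference in width was 63 bp in the window and 148 bp in the genome.

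The 5 high regions were spread over 115.4 kb. Their centres followed each other at 10.6, 18.5, 43.5 and 39.1 kb. The first 100 kb of the window held 9 of the 11 regions found in both replicates and 4 of the 5 with a ratio above 2. The second 100 kb held the remaining 2, of which the wide region 3L:12682659-12687664 was the high one. In the last 50 kb the scores of the combined list did not pass 0.44.

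Long stretches of the locus had no region. The longest in the combined list was 28.7 kb, from 12697983 to 12726715, and the next was 18.1 kb, from 12655533 to 12673663. Counting regions found in both replicates alone, the gaps on either side of the wide region 3L:12682659-12687664 were 35.1 kb before it and 39.1 kb after it. It stood apart from the others in both libraries, although replicate 2 listed a weak region inside the gap before it, 3L:12653596-12655291, at 0.44. A region absent from a list may have fallen short of the caller's limits, which no header or label gives, and read depth is unknown.

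The 13 combined-list regions not found in both replicates were weak. The 3 found in replicate 2 alone had combined scores from 0.26 to 0.40 and replicate 2 scores of 0.49 for 3L:12608131-12610111, 0.44 for 3L:12653708-12655532 and 0.35 for 3L:12742248-12744226. The 10 found in neither had combined scores from 0.33 to 0.46, ratios of at most 1.38, and widths from 1005 to 1567 bp. Their scores overlapped those of the low regions found in both replicates, while their widths did not, since the narrowest of the latter was 2089 bp. Of the 10, 5 were narrower than 1301 bp, the smallest width in either replicate list, which the combined list was not held to. In the genome 55% of the regions found in neither were below that width, so the share in the window was near the background. None of the 10 had a ratio above 2, against 3.74% of such regions.

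The gap from each of the 10 regions found in neither replicate to the nearest region found in both ran from 341 to 9224 bp, and 7 of the 10 lay within 5 kb, against 42.2% of such regions in the genome. The window also held more regions to lie near, with 55.0 regions found in both replicates per Mb against 28.9 over all sequences, and the limit of 5 kb was chosen after the gaps were seen. The shortest gap was that of 3L:12688006-12689098, which began 341 bp after the wide high region. The region 3L:12642793-12643945 ended 689 bp before the high region at 12644635. Whether these are separate sites or edges of the same enrichment was not tested.

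**Figure D3:**
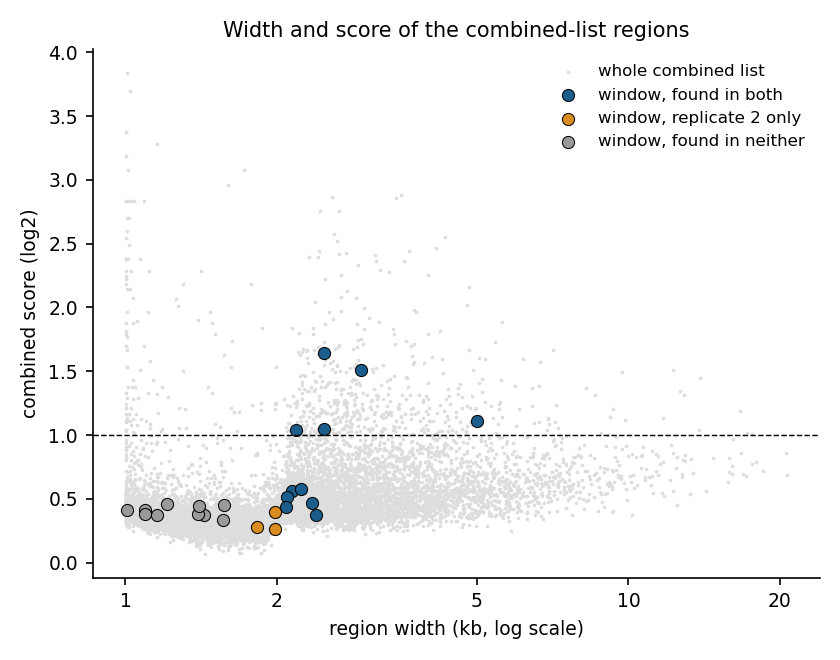
Width of each combined-list region in kb (log axis) against its combined log2 score. Grey points are the whole combined list, coloured points are the 24 regions of the Iroquois window by the replicates they were found in, and the dashed line marks a ratio of 2. The 10 window regions found in neither replicate are at most 1567 bp wide, and the 5 high ones are at least 2185 bp wide.

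Among the 11 regions, width and combined score had a Spearman rho of 0.66, beside 0.34 over all regions found in both replicates. The high regions were from 2185 to 5006 bp wide and the low ones from 2089 to 2394 bp, so the ranges overlapped. Without the wide region the high ones reached 2943 bp. In total the 11 regions covered 28.4 kb, 14.2% of the window. The replicate lists covered 12.5% of it in replicate 1 and 15.8% in replicate 2. Regions found in both replicates covered 9.70% of 3L and 11.3% of the 6 arms 2L, 2R, 3L, 3R, 4 and X.

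The locus was set beside the 593 windows of 200 kb on the 6 arms that share its grid. The Iroquois window had 5 regions found in both replicates with a ratio above 2, where the median window had 0 and the ninth decile was 2. Higher numbers were seen in 2 windows and the same number in 6 others. On 3L, 0 of 121 windows had more and 1 other had as many. In the replicate 1 list the window had 5 regions with a ratio above 2, where 5 of the 593 windows had more and 4 others as many. In the replicate 2 list it had 4, where 10 windows had more and 21 others as many. The median and ninth decile of the windows were 0 and 2 in replicate 1, and 1 and 3 in replicate 2. By covered length, 28.4 kb, 183 of the 593 windows were higher, and by number of regions found in both replicates 69 were higher. These ranks are descriptions with no test, and the locus was chosen for its genes with earlier results of these data known.

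**Figure D4:**
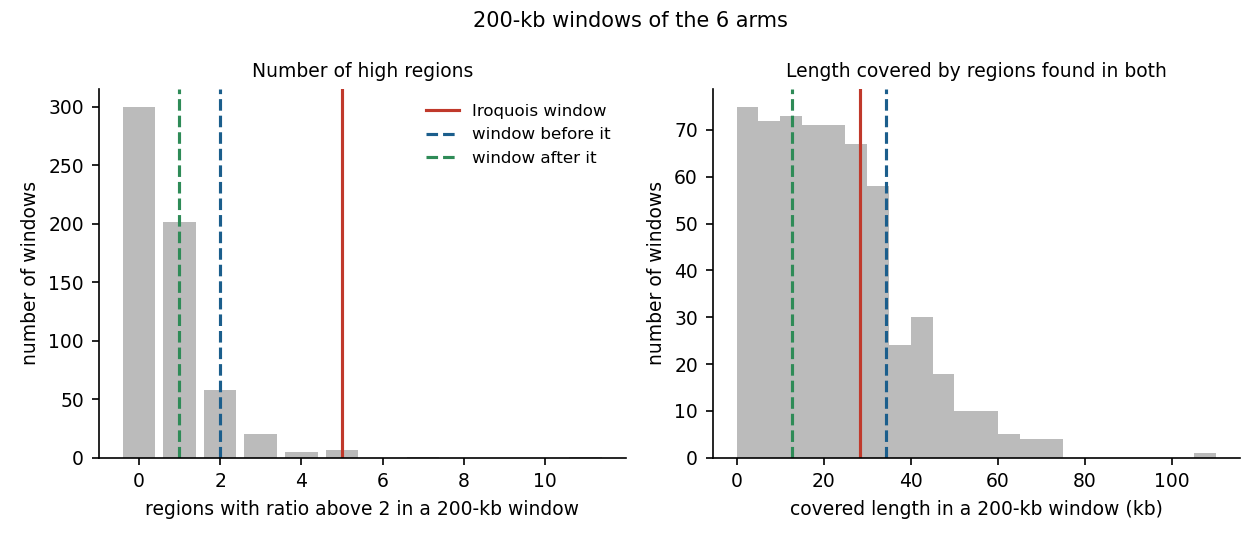
The 593 windows of 200 kb on the 6 arms, by number of regions found in both replicates with a ratio above 2 (left) and by length covered by regions found in both replicates in kb (right). The y axis counts windows, the solid line is the Iroquois window and the dashed lines are its neighbours. The Iroquois window lies far to the right by number of high regions, at 5, and within the bulk by covered length, at 28.4 kb.

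The flanks differed from the locus in different ways. The 200 kb before the window also held 11 regions found in both replicates and covered more, 34.3 kb, but 2 of these regions had a ratio above 2. The 200 kb after it held 5 regions over 12.8 kb, with 1 above a ratio of 2. Among regions found in both replicates, the highest combined score was 1.61 before the window and 1.17 after it, beside 1.64 inside. The whole combined list reached 1.67 after the window, in a region that was not found in both replicates. No list had a region across the end of the window. In the combined list the last region inside was 3L:12742248-12744226 at 0.26, and the first after it began 12129 bp beyond the limit at 0.35. At the start of the window, the combined-list region 3L:12558772-12560206 reached into it and scored 0.38. The nearest combined-list region outside ended 7259 bp before the limit and scored 0.47. The regions at both limits were thus low.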

How the data were processed

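Enriched regions were deposited as 1 list per ChIP replicate and 1 list for the replicates combined, in FlyBase release 5 per the file headers. The submitters' processing notes name Bowtie 0.12.7, an aligner. Not given in the sources used here are the region caller, its threshold, the use of the inputs and how the combined list was made. The authors gave each region 1 deposited score, treated as log2. The headers state no scale, which was read from the values: over the 66 pairs among the 12 most frequent scores of each list, differences equalled the log2 of simple fractions (denominators up to 40, tolerance 1e-07) in 16, 44 and 24 pairs (combined, replicate 1, replicate 2), and natural log and base 10 matched in 0. The lists hold no counts, so depth is unknown, and the number of libraries limits the precision.

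Regions overlapping the window were taken in each list. A combined-list region was found in a replicate when it overlapped by at least 1 bp, and its replicate score is the highest among those overlapped. Members' counts are read against shares over whole lists, and no test was made, since the inputs had no list. Overlaps were checked against bedtools 2.31.1 on simulated data. Python 3.11.15, numpy 2.4.6, pandas 2.3.3, scipy 1.17.1 and matplotlib 3.10.9 were used. The window, the gene list, the ratio of 2 and the comparisons were chosen with earlier results of these data known. Full values were given to the 6 regions with the highest combined score, the 2 widest, the lowest, and those at the limits of the window; the remaining regions found in both replicates, the gaps and the distances within 5 kb were added after their values were seen. Promoter motifs and protein identities were planned and were not analysed here, for lack of sequences.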

Additional observations from a re-analysis of the deposited data

How the results depend on the processing

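The number of regions of the window found in both replicates was 11 with 50% of the region covered and with gaps of at most 500 bp merged, from 11 to 14 with 1 replicate left out, and 5 when replicate regions had to reach the median score of their list, where fewer regions entered by construction. Under that limit the covered share was 7.54% and the median score 1.11, because the low regions drop out. The covered share was from 14.2% to 17.1% with 1 replicate left out, and 14.9% with gaps merged. The number with a ratio above 2 was 5 by combined score in these alternatives and at a ratio above 1.5, and 1 at a ratio above 3. At 1.5 the low regions 3L:12631576-12633810 and 3L:12576168-12578309 lay just below, at 1.49 and 1.48. In single replicates the former had 1.40 and 1.62, and the latter 1.67 and 1.39. The limit at the median score could not lower the number of 5. The list medians were 0.59 and 0.58, and the 5 high regions scored at least 1.01 in replicate 1 and 0.99 in replicate 2. Leaving out a replicate here drops only the overlap with it, since the combined score is made from both libraries, so that count could not fall, and the median score, from 0.54 to 0.57, does not show stability. Scored by a single replicate, a choice made after seeing the data, the 11 regions had 5 above a ratio of 2 and a median of 0.74 in replicate 1, and 4 and 0.69 in replicate 2. The median difference between replicates, 0.066, was the same with the score of the longest overlap. That had to be so, since each of the 11 regions matched 1 region in each replicate. Of the 14 single-replicate scores of 7 named regions, 7 were less than 1 replicate SD from the combined score and 7 were not, an SD that comes from those same 2 values. No paired analysis was possible because no list of regions for the inputs was used and the groups were not compared by a test. Since depth is unknown, absence from a list does not show absence of dSFMBT.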
